A study of Mus musculus with 16 samples.

Results

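The 39 genes described here code for the proteins that copy the genome in S phase, from the factors that license replication origins to those that repack the new DNA into chromatin. They form a list of names grouped by function, and its rule uses no measured value, although it was drawn up when earlier results of these data were known. Each was read through a probe set annotated with that gene symbol alone, and where a gene had several, through the probe set with the highest mean log2 signal over the 16 arrays of the series. A probe set was found for 38 of the 39 genes, out of 18193 genes measured; the transcript of Chaf1a, the large subunit of chromatin assembly factor, was not analysed here. The 38 genes have 85 probe sets between them, 7 genes having 1 probe set and 31 having more.

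All arrays hold RNA from mouse kidneys at E11.5. The ureteric bud is by then an epithelial tube inside the metanephric mesenchyme; the bud gives rise to the collecting ducts, and the mesenchyme to nephrons and stroma. The first group holds 4 arrays of wild-type ureteric bud, each a pool of 3 to 9 buds, and the second 3 arrays of wild-type mesenchyme, each from an individual mesenchyme. Both tissues were parted by hand after collagenase B (0.5 mg/ml, 37 °C, 30 min). Wild-type mesenchyme was also taken by laser capture, on 4 arrays, each a pool of 3 to 4 mesenchymes cut from 7 µm sections of kidney rudiments. HoxA11, D11 double null mesenchyme fills the last 5 arrays; it was laser-captured too, but from urogenital ridges cut at the same thickness. The nulls lack a pair of paralogous homeobox genes needed for kidney growth. Source piece therefore differs together with genotype and cannot be told apart from it. No pool size is given here for the null arrays, so whether pooling differs with genotype is not known. The series describes replicates as separate embryos; strain and litter are not stated in the sources used here. Values are MAS5 signals, a linear brightness per probe set. Differences are on the scale log2(signal + 36.3), with limma's standard error (SE) and its p-value adjusted over all tested probe sets by the Benjamini-Hochberg method, and a gene is called changed when that adjusted p is under 0.05.

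DNA replication starts with licensing: the origin recognition complex with Cdc6 and Cdt1 loads the ring-shaped MCM helicase on DNA, and geminin blocks Cdt1 once S phase has begun. The kinase Cdc7 with its partner Dbf4, together with Cdc45 and the GINS complex, then turns the loaded rings into moving helicases, behind which primase and the DNA polymerases work with the sliding clamp PCNA. Many of these genes are transcribed in a burst at the entry to S phase by E2F factors, so their level in a bulk sample is widely read as a sign of proliferation. In such bulk samples a smaller share of cells in S phase and less RNA per cell cannot be told apart.

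The sequence around the start sites was not used to choose the genes. RefSeq promoter windows of assembly GRCm38.p6, running from 250 bases before to 50 bases after the annotated start, were at hand for 32 of the 39 genes. The E2F words TTTGGCGC, TTTCCCGC, TTTCGCGC and TTTGCCGC, searched on both strands, occurred in the windows of 13 of these 32 genes (40.6%), against 704 of 27025 genes in the whole table (2.6%). The 13 genes are Orc1, Cdc6, Cdt1, Mcm3, Mcm5, Mcm6, Mcm7, Gins3, Pola1, Pold1, Rfc3, Lig1 and Uhrf1. The other 19 genes with a window hold none of them. The same words occurred in 13 of 38 further replication genes (34.2%), in 8 of 20 genes of E2F and G1/S control (40.0%) and in 1 of 26 mitosis genes (3.85%). The CHR word TTTGAA, an element typical of genes expressed late in the cycle, ran the other way, in 6 of 32 replication genes (18.8%) and 19 of 26 mitosis genes (73.1%), against 20.2% of all genes. The CCAAT box occurred in 20 of the 32 (62.5%), in 20 of the 26 mitosis genes (76.9%) and in 41.1% of all genes. A match of letters is a description and not a binding site. Windows are printed for 5 genes given in full below, 3 with E2F words and 2 without; each runs 5′ to 3′ on the gene's strand, with E2F words in capitals.
Mcm6, GRCm38.p6 chr1:128359656-128359955, minus strand: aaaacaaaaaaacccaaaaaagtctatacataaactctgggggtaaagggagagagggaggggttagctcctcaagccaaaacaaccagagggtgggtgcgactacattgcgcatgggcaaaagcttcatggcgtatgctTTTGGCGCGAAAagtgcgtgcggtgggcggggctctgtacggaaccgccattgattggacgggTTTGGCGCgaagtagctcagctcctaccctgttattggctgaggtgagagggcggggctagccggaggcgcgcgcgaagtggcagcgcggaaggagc
Mcm5, GRCm38.p6 chr8:75109259-75109558, plus strand: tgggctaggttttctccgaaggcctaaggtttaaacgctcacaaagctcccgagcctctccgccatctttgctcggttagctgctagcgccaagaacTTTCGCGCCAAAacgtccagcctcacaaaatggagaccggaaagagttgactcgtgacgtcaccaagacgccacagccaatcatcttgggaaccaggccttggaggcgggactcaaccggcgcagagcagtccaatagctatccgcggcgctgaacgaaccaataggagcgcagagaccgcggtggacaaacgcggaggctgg
Rfc3, GRCm38.p6 chr5:151651159-151651458, minus strand: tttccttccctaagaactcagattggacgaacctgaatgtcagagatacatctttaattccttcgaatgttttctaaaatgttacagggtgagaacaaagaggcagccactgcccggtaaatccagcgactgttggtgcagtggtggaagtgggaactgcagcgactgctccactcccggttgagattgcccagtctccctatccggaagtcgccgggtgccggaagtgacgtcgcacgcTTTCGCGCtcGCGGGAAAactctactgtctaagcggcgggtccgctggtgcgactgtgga
Pola2, GRCm38.p6 chr19:5964157-5964456, minus strand: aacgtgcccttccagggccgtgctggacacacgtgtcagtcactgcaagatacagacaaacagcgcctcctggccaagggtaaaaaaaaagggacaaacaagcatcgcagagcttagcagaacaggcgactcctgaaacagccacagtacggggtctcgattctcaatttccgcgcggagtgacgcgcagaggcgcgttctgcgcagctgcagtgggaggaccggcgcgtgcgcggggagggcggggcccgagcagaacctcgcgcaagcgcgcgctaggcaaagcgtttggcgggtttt
Chaf1b, GRCm38.p6 chr16:93883651-93883950, plus strand: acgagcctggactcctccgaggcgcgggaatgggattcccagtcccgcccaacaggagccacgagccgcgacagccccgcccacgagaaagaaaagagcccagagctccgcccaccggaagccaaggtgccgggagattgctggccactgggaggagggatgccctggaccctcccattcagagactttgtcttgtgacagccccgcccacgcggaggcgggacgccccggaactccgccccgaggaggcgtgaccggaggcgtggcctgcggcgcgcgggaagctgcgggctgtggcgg
In Mcm6 the words lie at bases 141 to 148, 145 to 152 and 204 to 211 of the window, the first overlapping the next on the opposite strand. In Mcm5 they lie at bases 98 to 105 and 102 to 109 and also overlap, and in Rfc3 at bases 241 to 248 and 251 to 258. The windows of Pola2 and Chaf1b hold none of the E2F words. Only these exact words were searched, so a window without them is not shown to lack an E2F site.

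Replication transcripts were abundant in every sample. All 38 genes lay above the array's median signal on all 16 arrays, so all 38 passed the filter on dim probe sets in each comparison. Their levels also moved little between the 4 groups. The distance between a gene's highest and lowest group mean had a median of 0.49 log2 units over the 38 genes, against 0.79 over the 15242 probe sets that lay above the median on every array and 0.57 over 29 mitosis genes. The spread between arrays of one group had a median SD of 0.24, against 0.36 and 0.27. Prim1, the catalytic subunit of primase, had the smallest distance at 0.15, and Pcna, the sliding clamp, stood at 0.28. These distances hold for the 1 probe set read per gene, and a second Prim1 probe set was called in a comparison below. Chaf1b, the middle subunit of chromatin assembly factor, had the widest at 1.45, followed by Pola1 at 1.21, Pola2 at 1.14, Pold1 at 1.1 and Rfc4 at 1.02. The 15242 probe sets were neither matched to the genes in signal nor cut to 1 per gene. The part of signal level in these distances and SDs was not tested. These are descriptions of single genes, and no test was made over the list.

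**Figure D1:**
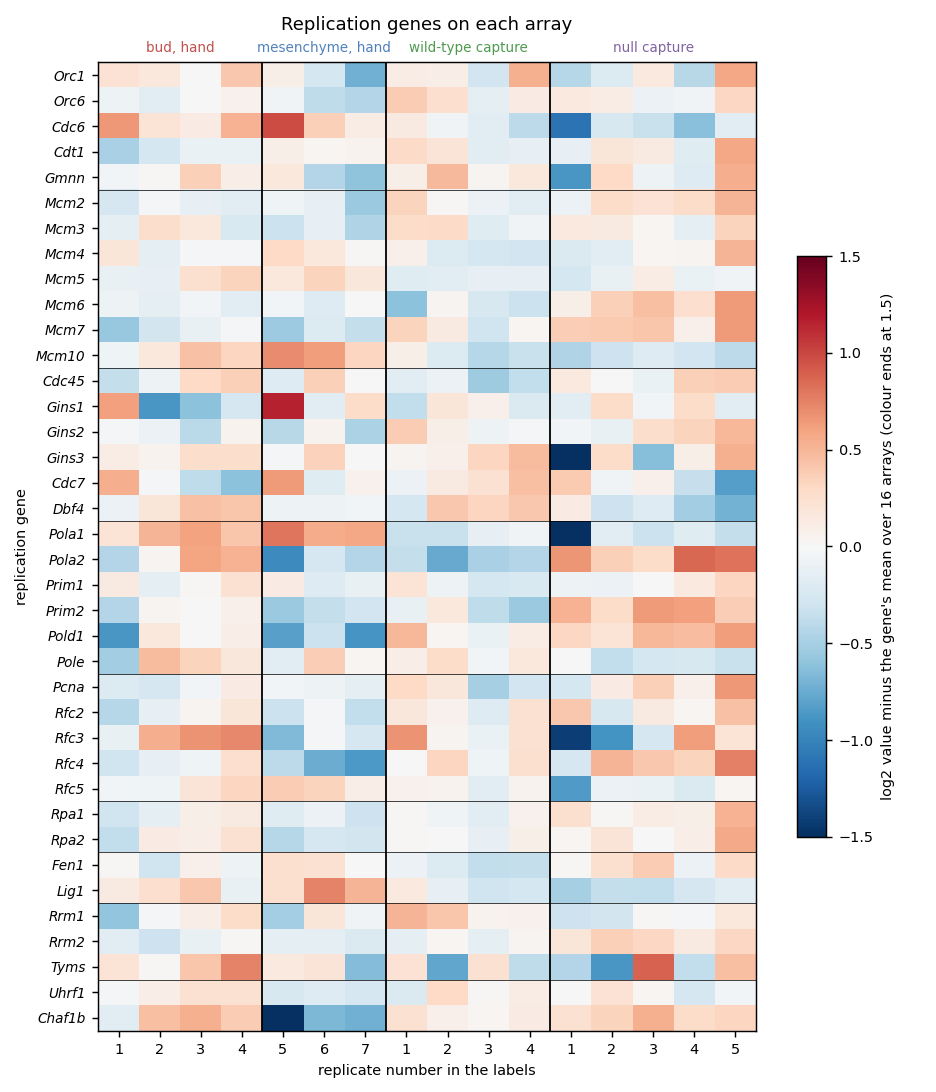
Each row is a replication gene and each column 1 of 16 arrays; colour gives the log2 value minus the gene's own mean over the arrays, from blue (below) to red (above). Most cells are pale, Chaf1b is blue in the 3 hand-dissected mesenchyme arrays, and null array 1 holds the darkest blue cells of Gins3, Pola1 and Rfc3.

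Averaged over the 38 genes, the mean log2 level per array, taken relative to each gene's own mean, was 0.04 ± 0.12 (SD, n = 4) in bud, -0.09 ± 0.09 (n = 3) in hand-dissected mesenchyme, -0.02 ± 0.09 (n = 4) in wild-type captures and 0.03 ± 0.17 (n = 5) in null captures. Under this scaling the arrays of the 4 groups overlapped. In bud the level ran from -0.11 in array 1 to 0.16 in array 4, and among nulls from -0.21 in array 1 to 0.26 in array 5. The 29 mitosis genes stood at 0.08, -0.09, -0.15 and 0.11 in the same order of groups, and 28 genes of E2F and G1/S control at 0.14, 0.20, -0.08 and -0.17. When every array was instead centred on its median signal the replication level became 0.16, -0.11, -0.23 and 0.12, so the order of the groups depends on the scaling. So does their overlap: after centring, bud (-0.02 to 0.29), hand-dissected mesenchyme (-0.15 to -0.07) and wild-type captures (-0.28 to -0.20) no longer overlapped, while nulls ran from -0.65 in array 1 to 0.38.

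**Figure D2:**
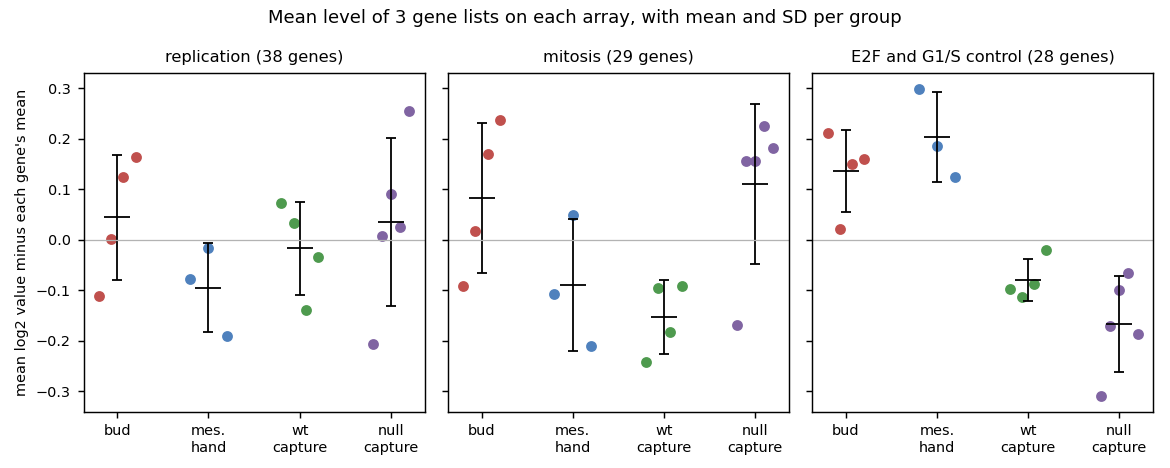
Points are arrays, bars the mean and SD of each group; the vertical axis is the mean log2 value of the list's genes relative to each gene's mean over 16 arrays. For the replication genes the groups overlap, between -0.21 and 0.26, which holds under the deposited scaling and not among the 3 wild-type groups after centring on the median, while for E2F and G1/S control all hand-dissected arrays lie above all laser captures under the deposited scaling; after centring the nulls reach 0.18 and overlap them.

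The arrays differ in ways that bear on what follows. Median signals ran from 112.7 to 209.2 while trimmed means were equal, so centring on the median shifts every difference, by 0.13 in bud against mesenchyme, 0.30 in null against wild type and -0.20 in capture against hand dissection. Hand-dissected tissues matched their labels: summed ureteric bud markers ran from 194121 to 247507 in bud and from 3282 to 3594 in hand-dissected mesenchyme. Summed nephron progenitor markers ran from 1488 to 2346 and from 77628 to 97072. The captures held more bud marker signal, with sums of 10842 to 65012 in wild type and 13542 to 48433 in nulls. Their nephron progenitor sums ran from 47016 to 82249 and from 24740 to 106561, the lowest being null array 4. Null array 1 stood apart, with a median correlation of 0.896 to the other nulls, against 0.928 to 0.933 for the rest. In the null captures the Hoxa11 probe set read 124 ± 44.5 (SD, n = 5) against 709 ± 147 (n = 4) in wild-type captures (log2 difference -2.23 ± 0.34 SE, adjusted p = 0.0114). The Hoxd11 probe set read 341 ± 121 against 435 ± 115 (-0.35 ± 0.36 SE, adjusted p = 0.635), and whether either probe set lies within the deleted sequence is not stated in the sources used here.

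Ureteric bud was compared with hand-dissected mesenchyme to ask which genes mark each tissue. Bud arrays were pools and mesenchyme arrays individual mesenchymes, so pooling differs together with tissue and cannot be told apart from it. Of the 38 replication genes 3 changed, all higher in the bud: Chaf1b, which with its partners deposits histones behind the fork, and Rfc3 and Rfc4, subunits of the clamp loader that places PCNA on DNA. That is 7.89% of the genes, where 23.9% of all 23851 tested probe sets were called, 12.4% as higher. The other 35 did not pass the test, among them Pcna, all of Mcm2 to Mcm7 and Rrm1 and Rrm2. The median difference was 0.11 over the genes and 0.02 over all probe sets, with 25 of 38 genes on the positive side. The unadjusted p was under 0.05 for 6 of 38 genes, against 36.1% of all probe sets. For 30 of the 38 (78.9%) the 95% interval lay within 1 log2 unit of 0, against 49.4% of all probe sets. The probe sets in these shares were not matched to the genes in signal, here or in the comparisons below.

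Chaf1b read 1951, 3007, 3198 and 2882 in the 4 bud arrays and 544, 1365 and 1322 in the 3 mesenchyme arrays. All bud arrays lay above all mesenchyme arrays, and mesenchyme array 5 was the lowest by far. The means were 2759 ± 554 (SD, n = 4) and 1077 ± 462 (SD, n = 3), a 2.66-fold difference (log2 difference 1.41 ± 0.32 SE, 95% interval 0.70 to 2.12, adjusted p = 0.00765), which passed the test in all 20 alternative settings. Uhrf1, which binds hemimethylated DNA and brings the maintenance methyltransferase to the fork, read 19227, 21010, 22930 and 23034 in bud and 16588, 17191 and 16514 in mesenchyme. Its groups did not overlap either, but the difference of 0.36 ± 0.13 SE missed the threshold (adjusted p = 0.0645) and passed in 5 of 20 settings. Groups did not overlap for 4 of the 38 genes (10.5%), against 32.1% of all probe sets; the other two were Rfc4 and Cdt1.

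Rfc3 read 3436, 5429, 5923 and 6152 in bud and 2325, 3660 and 3099 in mesenchyme, so that bud array 1 lay below the highest mesenchyme array. The means of 5235 ± 1237 and 3028 ± 670 differed by 0.77 ± 0.25 SE (adjusted p = 0.0457). Rfc4 read 6039, 6876, 7156 and 8915 in bud and 5663, 4431 and 4090 in mesenchyme, with no overlap; the means of 7246 ± 1209 and 4728 ± 828 differed by 0.61 ± 0.20 SE (adjusted p = 0.0468). Both calls sit close to the threshold: Rfc3 passed in 10 and Rfc4 in 9 of 20 alternative settings, with adjusted p up to 0.201 and 0.182. Rfc3 lost its call without bud array 2, 3 or 4 (0.104, 0.129 and 0.115) or mesenchyme array 5 or 7 (0.154 and 0.110), and Rfc4 without the same bud arrays (0.0807, 0.111 and 0.118) or mesenchyme array 6 or 7 (0.129 and 0.182). The other clamp and loader genes stood at -0.01 for Pcna, 0.15 for Rfc2 and -0.17 for Rfc5. For Pcna the 95% interval of the difference was -0.26 to 0.23. Wild-type captures of mesenchyme averaged 2388 for Chaf1b, 4388 for Rfc3 and 8182 for Rfc4, against 2759, 5235 and 7246 in bud. Rfc4 was therefore low in hand-dissected mesenchyme and not in captured mesenchyme. The ratio of the 3′ to the 5′ Gapdh control probe set ran from 6.53 to 12.2 in bud. It ran from 22.1 to 69.3 in hand-dissected mesenchyme. The same ratio for the Actb control overlapped between the tissues, at 10.92 to 16.25 in bud and 11.08 to 17.87 in hand-dissected mesenchyme. The part of RNA length in these differences was not tested.

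Among licensing genes no member passed. Differences ran from -0.29 for Cdt1 to 0.49 for Orc1, the subunit that makes the origin recognition complex active. Cdt1, the MCM loader, read 21152 to 27673 in bud and 30195 to 31393 in mesenchyme, without overlap (-0.29 ± 0.13 SE, adjusted p = 0.122). The 7 genes of the MCM helicase and its activator Mcm10 lay between -0.34 for Mcm10 and 0.32 for Mcm3, all with intervals within 1 log2 unit of 0. A second Mcm3 probe set was called higher in bud (0.68 ± 0.21 SE, adjusted p = 0.0359), the only one among the genes' 34 further tested probe sets that was called in this comparison.

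In origin firing, differences ran from -0.70 ± 0.37 SE for Gins1, a GINS subunit (adjusted p = 0.195), to 0.30 for Dbf4, the activator of Cdc7. Gins1 had one of the widest spreads, with 3565 to 10073 in bud and 5825 to 14677 in mesenchyme. Among polymerases and primase the values ran from -0.21 for Pola1, the catalytic subunit of polymerase alpha, to 0.73 ± 0.29 SE for Pola2, its regulatory subunit (adjusted p = 0.0893). Pold1, the catalytic subunit of polymerase delta, stood at 0.52 and Pole, that of polymerase epsilon, at 0.04. The single-strand binding genes Rpa1 and Rpa2 stood at 0.14 and 0.34, and the genes that process and join Okazaki fragments, Fen1 and Lig1, at -0.22 and -0.33. For Fen1 a second, dimmer probe set stood on the other side of 0 (0.56 ± 0.21 SE, adjusted p = 0.072). Rrm1 and Rrm2, the subunits of ribonucleotide reductase, stood at 0.07 and 0.03, and Tyms, which makes thymidylate, at 0.45. Bud array 1 was the lowest bud array for several of these genes, and without it 9 genes were called: Chaf1b, Rfc3, Rfc4, Uhrf1, Pola2 (0.94, adjusted p = 0.0136), Pold1 (0.76, 0.00869), Rpa2, Dbf4 and, as lower in bud, Gins1 (-1.0, 0.0252). That is 23.7% of the genes, beside 33.4% of the 23354 probe sets tested in that setting.

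**Figure D3:**
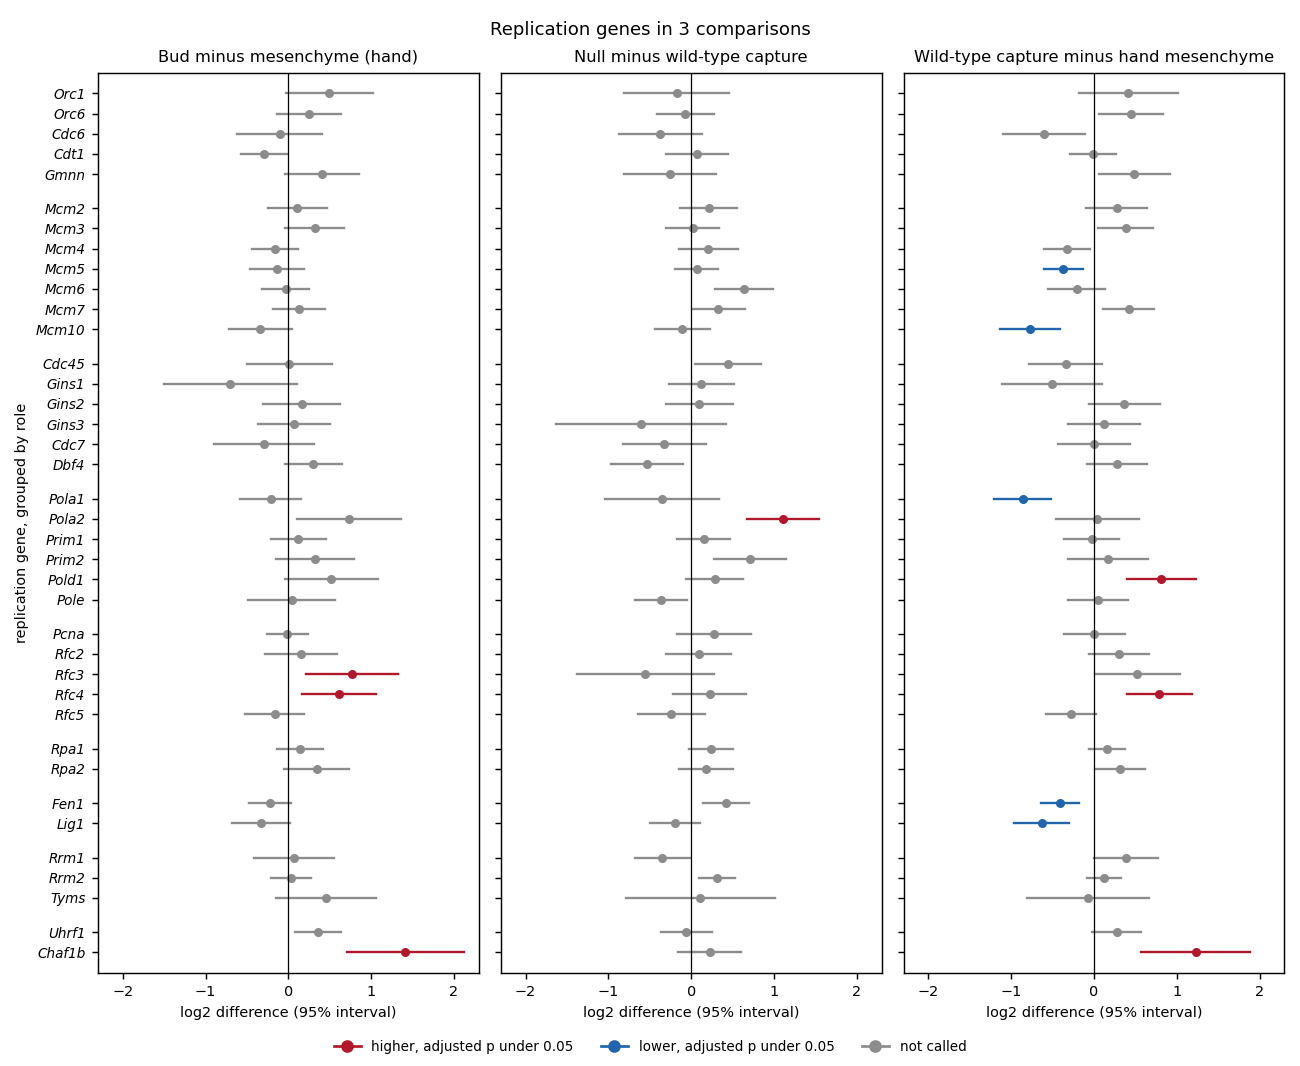
Points are log2 differences of the 38 replication genes in 3 comparisons, lines their 95% intervals, and coloured points genes called by limma at an adjusted p under 0.05 (red higher, blue lower in the group named first). The counts of called genes are 3, 1 and 8, and most intervals lie within 1 log2 unit of 0.

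Genes around the replication machinery were read in the same comparison. Of 44 further replication genes 4 were higher in bud, Chtf18 (1.06 ± 0.32 SE, adjusted p = 0.0341), Mcm8 (0.80), Orc3 (0.72) and Orc5 (0.62), and 2 lower, of which Dck (-0.72) was the farther from 0. Of 28 genes of E2F and G1/S control, Ccnd1, coding for cyclin D1, was 3.20-fold higher in bud, at 27193 ± 3193 against 8497 ± 1287 (1.68 ± 0.16 SE, adjusted p = 1.1e-05). Mycn was also higher (0.83), and Ccne2, a cyclin E gene (-0.76), and E2f6, a repressing E2F (-0.54), were lower. Of 4 tested CDK inhibitors, Cdkn1a, coding for p21, was higher (2.36 ± 0.27 SE, adjusted p = 5.74e-05) and Cdkn1c, coding for p57, lower in bud (-1.45 ± 0.17 SE, adjusted p = 5.99e-05). Of 21 checkpoint and fork repair genes Fanca (1.16) and Exo1 (0.86) were higher and Brca1 lower (-0.67), and of 29 mitosis genes Mad2l1 (0.61) and Prc1 (0.52) were higher. Called genes made up 13.6%, 14.3%, 50%, 14.3% and 6.9% of these lists in the order given, against 23.9% of all probe sets. Of the genes named from these 5 lists, Ccnd1, Cdkn1a and Cdkn1c were called in every one of 20 alternative settings. Mycn and Fanca were called in 19, Brca1 in 5 and the other named genes in 10 to 14. Of 8 tested endothelial markers 8 were lower in bud (summed signal 3158 to 5744 in bud and 15426 to 23027 in mesenchyme). So were 6 of 9 erythroid markers (9222 to 39284 and 64966 to 74014) and 6 of 8 macrophage markers (1012 to 1476 and 5072 to 14955). Of 6 tested neural markers 3 were lower and 1 higher. Of 3 tested gonad and coelomic markers 0 were lower and 1 higher. The part of these tissues in the differences of the replication genes was not tested.

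HoxA11, D11 double null mesenchyme was compared with wild-type mesenchyme, both laser-captured, to ask which genes depend on the Hox genes. Of the 38 replication genes 1 changed: Pola2, the regulatory subunit of polymerase alpha, which starts each new strand together with primase, was 2.15-fold higher in the nulls. That is 2.63% of the genes, beside 1.76% of 23387 tested probe sets (0.59% as higher). The unadjusted p was under 0.05 for 10 of 38 genes, against 18.7% of all probe sets. Genes with the next smallest p were Mcm6, Prim2 and Fen1, and none of these passed. The median difference was 0.09 over the 38 genes and -0.15 over all probe sets, and 23 genes lay on the positive side. Without null array 5 the median over the genes was 0.019 and 20 were positive. For 32 genes (84.2%) the interval lay within 1 log2 unit of 0, against 38.9% of all probe sets.

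Pola2 read 2131, 1613, 1949 and 2009 in the 4 wild-type captures and 4370, 3534, 3319, 5034 and 4857 in the 5 nulls. Every null array lay above every wild-type array, with a gap between the groups wider than the range of the wild-type arrays. The means were 4223 ± 770 (SD, n = 5) and 1926 ± 222 (SD, n = 4; log2 difference 1.11 ± 0.20 SE, 95% interval 0.67 to 1.54, adjusted p = 0.0265). The call was kept in 17 of 23 alternative settings. It was lost when wild-type array 1, 2, 3 or 4 was left out (adjusted p = 0.0641, 0.102, 0.0907 and 0.0918), while the difference stayed between 1.03 and 1.16. Pola2 has 2 further probe sets, both too dim to be tested, at mean signals of 5.02 and 60.1 in nulls and 62.6 and 86.6 in wild type. Averaging over all its probe sets gave a difference of -0.02 (adjusted p = 0.981).

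Mcm6, a subunit of the MCM ring, read 11436, 18024, 14824 and 13980 in wild type and 18633, 22395, 23880, 20896 and 27257 in nulls. The groups did not overlap, with 22612 ± 3241 against 14566 ± 2718 (0.64 ± 0.16 SE, adjusted p = 0.0716). Its second tested probe set stood at 0.08 ± 0.13 SE (adjusted p = 0.776), so the probe sets of Mcm6 differ in size. Prim2, the large subunit of primase, read 2741, 3292, 2255 and 1995 in wild type and 4262, 3587, 4617, 4540 and 3821 in nulls, again without overlap (0.71 ± 0.20 SE, adjusted p = 0.0946). Its second probe set gave 1.04 ± 0.26 SE (adjusted p = 0.0738). Fen1, the flap endonuclease that trims Okazaki fragments, read 42572, 39244, 34921 and 35452 in wild type and 45710, 53387, 59195, 42449 and 55347 in nulls. Null array 4 lay just below wild-type array 1 (0.42 ± 0.13 SE, adjusted p = 0.114). Groups did not overlap for 4 of the 38 genes (10.5%), against 8.82% of all probe sets, the fourth being Rrm2 (0.31 ± 0.10 SE, adjusted p = 0.136).

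Without null array 1, the array that stands apart, 3 of the genes were called: Pola2 (1.09, adjusted p = 0.0133), Mcm6 (0.71, adjusted p = 0.0237) and Fen1 (0.46, adjusted p = 0.0498). That is 7.89% of the genes, beside 7.98% of the probe sets tested in that setting, or 1811 called in all against 411 with the array. Null array 1 had the lowest null value for Gins3 (583, against 1750 to 3999 in the other nulls), Pola1 (1753, against 4872 to 5594) and Rfc3 (1376, against 1984 to 5744). Summed macrophage markers ran from 1793 to 19525 in nulls and 13314 to 26074 in wild type, with 1 of 10 called lower, all 10 negative (median -1.97) and 8 with an unadjusted p under 0.05. Summed endothelial markers ran from 9153 to 23551 and 14178 to 35201, with 0 of 10 called by limma, all 10 negative (median -0.93) and 4 with an unadjusted p under 0.05. Summed neural markers ran from 3793 to 45840 and 3929 to 7917, with 1 of 7 called higher. All 7 were positive (median 1.28), and 3 had an unadjusted p under 0.05. Nulls 1 and 4 held the highest sums (30720 and 45840), and nulls 2 and 3 (11721 and 8221) also lay above every wild-type capture. Summed gonad and coelomic markers reached 16948 in null array 5, against at most 1029 in the other nulls. No marker of these lists read 0 on any array, and the part of these tissues in the replication values was not tested.

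**Figure D4:**
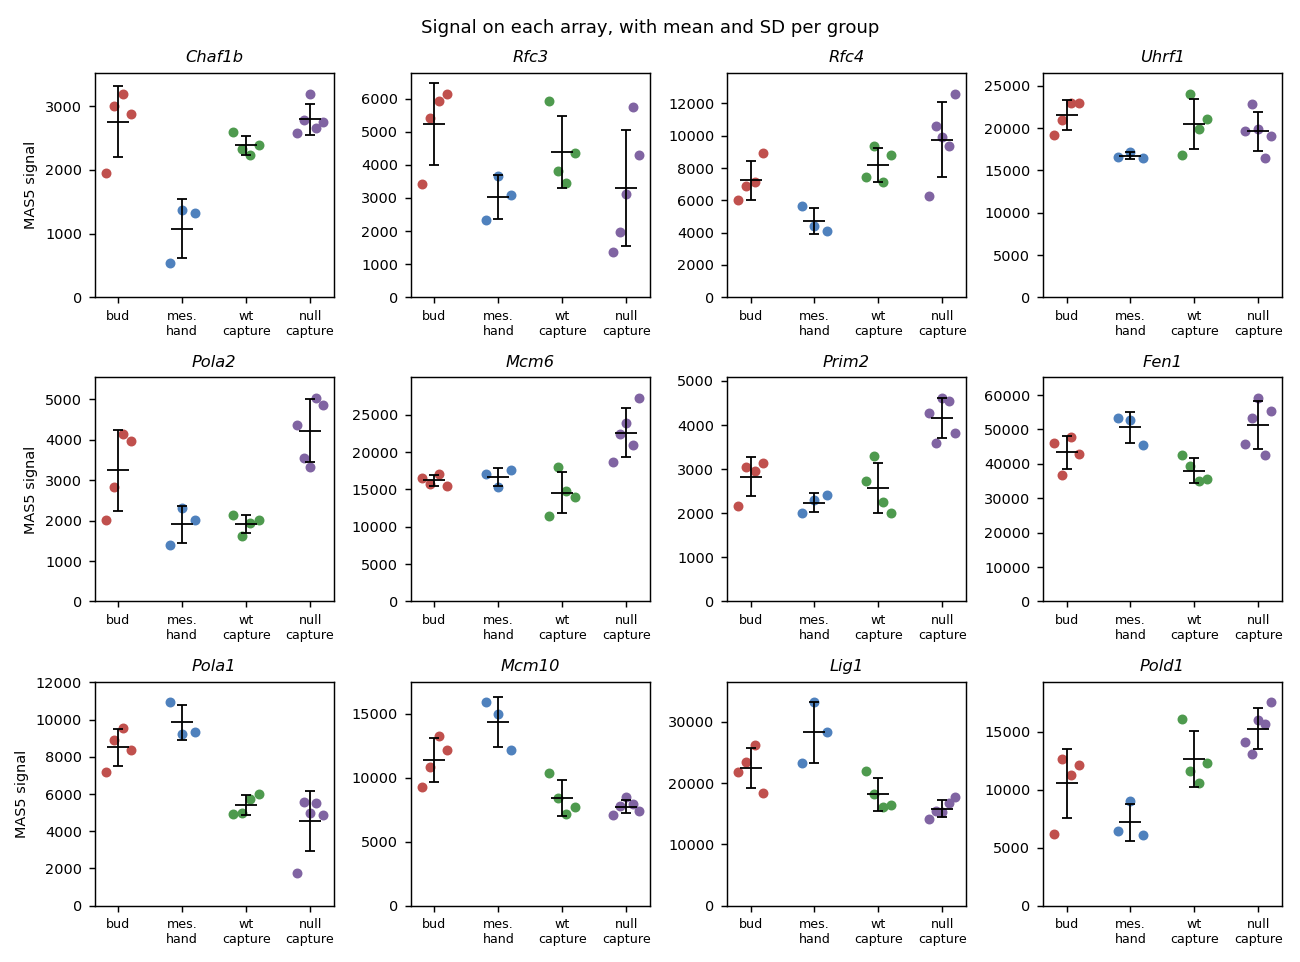
Each panel gives the MAS5 signal of a replication gene on every array, with bars for the mean and SD of each group; vertical axes start at 0 and differ between panels. Chaf1b is lowest in hand-dissected mesenchyme, and Pola2, Mcm6 and Prim2 in the 5 nulls lie above all wild-type captures.

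By role, licensing genes stood between -0.37 for Cdc6 and 0.07 for Cdt1 in nulls against wild type, with 4 of 5 negative. The MCM genes stood between -0.11 for Mcm10 and 0.64 for Mcm6, 6 of 7 positive. In origin firing Gins3 had the largest negative value of the 38 genes but also the widest interval (-0.61 ± 0.47 SE, -1.63 to 0.41). Dbf4 stood at -0.54 ± 0.20 SE (adjusted p = 0.180) and Cdc45, the factor that joins MCM and GINS, at 0.45 ± 0.18 SE (adjusted p = 0.217). In polymerases and primase Pola1 stood at -0.35 and Pole at -0.37 ± 0.14 SE (adjusted p = 0.201), against 0.15 for Prim1 and 0.28 for Pold1. The clamp Pcna stood at 0.27 ± 0.20 SE and the loader genes between -0.55 for Rfc3 and 0.23 for Rfc4. Rpa1 and Rpa2 stood at 0.24 and 0.18, Lig1 at -0.19, Rrm1 at -0.35 and Tyms at 0.11 with an interval of -0.79 to 1.01. Uhrf1 stood at -0.06 and Chaf1b at 0.22. Centring arrays on the median added 0.30 to each of these values and left Pola2 as the only call (1.41, adjusted p = 0.0268).

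Of the other lists, few genes passed in this comparison. Rnaseh2b, a subunit of the enzyme that removes ribonucleotides from DNA, was the only one called of 44 further replication genes (12059 ± 2354 in nulls against 6131 ± 665, 0.96 ± 0.17 SE, adjusted p = 0.0267). None of 27 E2F and G1/S genes, 5 CDK inhibitors or 21 checkpoint genes was called by limma, while 4, 2 and 4 of them had an unadjusted p under 0.05. Over all probe sets 18.7% had an unadjusted p under 0.05. Among 29 mitosis genes 3 were higher in nulls: Top2a, the topoisomerase that disentangles sister DNA (0.67 ± 0.11 SE, adjusted p = 0.0155), Prc1, a spindle midzone protein (0.96), and Hmmr, a spindle protein (1.14). These calls passed in 11 to 15 of 23 alternative settings. Called genes made up 10.3% of the mitosis genes and 2.27% of the further replication genes, against 1.76% of all probe sets (0.59% as higher). The median over the mitosis genes was 0.19, with 23 of 29 positive.

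**Figure D5:**
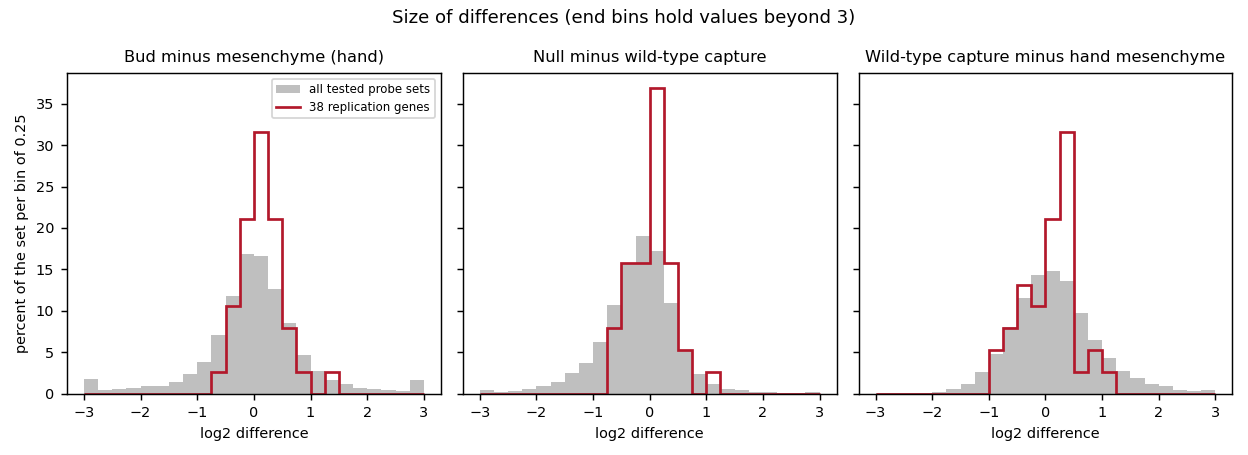
Histograms of log2 differences in 3 comparisons for all tested probe sets (grey) and for the 38 replication genes (red line), as percent of each set per bin of 0.25; end bins hold values beyond 3. The replication genes lie between -0.86 and 1.41 in all 3 panels, while the grey distributions reach the end bins.

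Laser-captured wild-type mesenchyme was compared with hand-dissected wild-type mesenchyme, the same tissue by label, to see how far these genes differ between the ways of sampling. Captures were pooled, while hand-dissected arrays held individual mesenchymes treated with collagenase. Pooling and collagenase therefore differ together with the way of sampling and cannot be told apart from it. The comparison shares its arrays with both others. Of the 38 genes 8 changed: Chaf1b, Pold1 and Rfc4 were higher in the captures, and Pola1, Mcm10, Lig1, Fen1 and Mcm5 were lower. That is 21.1% of the genes, beside 24.8% of 23611 tested probe sets (16.3% as higher, 8.51% as lower). Groups did not overlap for 10 genes (26.3%), against 35.2% of all probe sets, and the median difference was 0.12 over the genes and 0.11 over all probe sets. The unadjusted p was under 0.05 for 17 genes, against 38.3% of all probe sets. The 95% interval lay within 1 log2 unit of 0 for 29 genes (76.3%), against 42.1% of all probe sets. After centring on the median 3 genes were higher and 8 lower, with Cdc6, Mcm4 and Rfc5 added to the lower ones; over all probe sets the split moved from 3857 higher and 2009 lower to 2435 and 3204. In the other comparisons it moved from 2952 and 2749 to 4015 and 2204 for bud against mesenchyme, and from 138 and 273 to 136 and 71 for null against wild type.

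Chaf1b in the captures read 2591, 2323, 2241 and 2398, all above the hand-dissected values given above (2388 ± 150, n = 4, against 1077 ± 462; 1.23 ± 0.30 SE, adjusted p = 0.0136). The capture values lay within the range of the 4 bud arrays. Rfc4 read 7426, 9366, 7129 and 8807 (8182 ± 1076 against 4728 ± 828; 0.79 ± 0.18 SE, adjusted p = 0.00943), and again all captures lay above all hand-dissected arrays. Pold1 read 16092, 11609, 10572 and 12274 in captures and 6448, 9035 and 6119 in hand-dissected mesenchyme (0.81 ± 0.19 SE, adjusted p = 0.0110). Its second probe set stood at 0.17 ± 0.24 SE (adjusted p = 0.639). Without mesenchyme array 7 Rfc4 (adjusted p = 0.0513) and Pold1 (adjusted p = 0.0554) lost their calls.

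In the other direction Pola1 read 4951, 4965, 5733 and 6021 in captures and 10946, 9230 and 9358 in hand-dissected mesenchyme, 1.81-fold lower without overlap (5417 ± 543 against 9844 ± 956; -0.86 ± 0.16 SE, adjusted p = 0.00350). Mcm10 read 10349, 8400, 7207 and 7727 against 15931, 15024 and 12203 (-0.77 ± 0.17 SE, adjusted p = 0.00744). A second, dim Mcm10 probe set stood on the other side of 0 (0.50 ± 0.37 SE, adjusted p = 0.342). Lig1, the ligase that seals Okazaki fragments, read 22023, 18178, 16096 and 16507 against 23334, 33258 and 28279 (-0.63 ± 0.15 SE, adjusted p = 0.0127). Captures lay below all hand-dissected arrays for each of these genes. Fen1 read the capture values given above against 53417, 52875 and 45426 (-0.41 ± 0.11 SE, adjusted p = 0.0167), and Mcm5 read 17972, 18241, 18719 and 18665 against 22838, 25630 and 22984 (-0.37 ± 0.11 SE, adjusted p = 0.0284). A second Fen1 probe set stood at 0.08 ± 0.25 SE (adjusted p = 0.837). Both genes were likewise without overlap, yet Fen1 kept its call in 13 and Mcm5 in 12 of 20 settings, against 18 or 19 for the 6 other genes. Mcm5 lost it without capture 1, 2 or 4 or mesenchyme array 6 or 7, Fen1 without capture 4 or mesenchyme array 5 or 6, and Lig1 without mesenchyme array 6. Averaging over all probe sets of a gene, dim ones included, ended the call of Chaf1b (0.75, adjusted p = 0.056), Pold1 (0.49, 0.129), Pola1 (-0.49, 0.154), Fen1 (-0.16, 0.529) and Mcm10 (-0.11, 0.789).

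Different probe sets of a gene gave unequal answers. Of 34 further tested probe sets, in 26 genes, 19 had the sign of the representative one, against 27 in bud versus mesenchyme and 22 in null versus wild type. Of these 34, 5 were called here, 3 as higher and 2 as lower, and none opposed a called representative. They included a second Mcm5 probe set, lower like the first (-0.59 ± 0.16 SE, adjusted p = 0.0191), and 2 of Mcm3 (1.24 and 0.66). A second Prim1 probe set was higher (0.85 ± 0.15 SE, adjusted p = 0.00327) where the representative stood at -0.03 ± 0.15 SE, and a second Rrm2 probe set was lower (-0.44, adjusted p = 0.0341) where the representative stood at 0.12. RNA was amplified in 2 rounds. The ratio of the 3′ to the 5′ Gapdh control probe set ran from 14.3 to 22.9 in captures, 22.1 to 69.3 in hand-dissected mesenchyme and 6.53 to 12.2 in bud. For the Actb control it ran from 14.79 to 20.85, 11.08 to 17.87 and 10.92 to 16.25 in the same order. Captures thus had the lower mean ratio than hand-dissected mesenchyme for Gapdh (19.8 against 42.5) and the higher for Actb (17.1 against 13.8). The part of RNA length in these values was not tested.

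Of the genes not called, Mcm7 came closest (0.42 ± 0.14 SE, adjusted p = 0.0501). Licensing genes ran from -0.60 for Cdc6 to 0.49 for Gmnn, which codes for geminin, and origin firing genes from -0.50 for Gins1 to 0.37 for Gins2. Pola2 stood at 0.04 ± 0.23 SE, Prim2 at 0.17 and Pole at 0.05. Pcna stood at 0.00 with an interval of -0.37 to 0.37. Rrm2 stood at 0.12, Rrm1 at 0.39, Tyms at -0.07 and Uhrf1 at 0.28.

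Of the other lists, 7 of 44 further replication genes were higher in captures and 6 lower, led by Chtf18 (1.5), Mcmbp (1.20), Rrm2b (-1.17), Dck (-0.94) and Recql4 (0.86). Of 27 E2F and G1/S genes 7 were lower and 0 higher, led by Tfdp2 (-1.08), E2f6 (-1.05), E2f2 (-0.88), Cdc25a (-0.77) and E2f7 (-0.70). Wee1, a kinase that restrains mitosis, and Brca1 were lower among 21 checkpoint genes (-1.46 and -0.98), as was Cdkn1a among 4 CDK inhibitors (-0.91). Of 29 mitosis genes 3 were higher and 4 lower, with Aurkb (-1.14), Kif11 (-1.08), Birc5 (1.04), Nuf2 (-0.88) and Hmmr (-0.73) the farthest from 0. Called genes made up 29.5%, 25.9%, 9.52%, 25% and 24.1% of these lists in the order given. Over all probe sets 24.8% were called, 16.3% as higher and 8.51% as lower. Ureteric bud markers were also higher in captures, 10 of 11 being called, and their sum ran from 10842 to 65012, or 4.71% to 28.3% of the mean bud sum, against 1.43% to 1.56% in hand-dissected mesenchyme. Of 9 erythroid markers 5 were called higher and all 9 were positive (median 1.04), with sums of 87745 to 170004 in captures and 64966 to 74014 in hand-dissected mesenchyme. Of 10 macrophage markers 4 were called higher and all 10 were positive (median 0.76), with sums of 13314 to 26074 and 5072 to 14955. Of 7 renal stroma markers 3 were called lower and 1 higher, with 6 negative (median -0.19). Of 8 nephron progenitor markers 1 was called lower and 1 higher, with 4 negative (median 0.03, lowest -2.28). Of 10 endothelial markers 0 were called, and of 5 neural markers 1 was called higher. None of these markers read 0 on any array, and the part of these tissues in the replication values was not tested.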

How the data were processed

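After 2 rounds of amplification, RNA of the 16 samples was read on Affymetrix MOE430_v2 arrays, per the labels' protocols. The deposited values are MAS5 signals, a linear intensity per probe set, per the submitters' processing notes, with the version not given in the sources used here. As read from the values, the authors' scaling set each array's mean, after trimming 2% at each tail, at 1500. Of 45101 probe sets 64 controls were removed. Gene names came from the platform annotation. Intensities became log2(signal + 36.3), with the 25th percentile of all signals as the offset, so differences of dim genes are understated. A probe set was tested if it exceeded the array median on a number of arrays no smaller than the smaller group. Each comparison was fitted on its own arrays with limma 3.58.1 in R 4.3.3 (lmFit, then eBayes with its trend option), and p-values were adjusted by Benjamini-Hochberg over all tested probe sets. All adjusted p are limma's; SD is over arrays. The script was tested on simulated data. Arrays give no read depth, so their number limits the precision. No 2 arrays held identical values. Batches could not be tested, since the sources used here state neither slides nor dates.

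Members, gene lists and alternatives were chosen with earlier results of these data known, so no list was tested as a whole. The lists were 9 roles of the replication genes, further replication genes, E2F and G1/S control, CDK inhibitors, checkpoint and fork repair, mitosis, and markers of 8 tissues. Named genes are every member called or, where fewer than 4 were called, those with the smallest p up to 4, and up to 5 called genes per other list. The further probe sets named for Fen1, Mcm3, Mcm5, Mcm6, Mcm10, Pold1, Prim1, Prim2 and Rrm2 were singled out after their values were seen. Replicate numbers shared by null and wild-type captures gave correlations of deviations from -0.05 to 0.07 and were not treated as pairs. Promoter windows came from RefSeq (GRCm38.p6). Figures used matplotlib 3.10.9 with pandas 2.3.3.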

Additional observations from a re-analysis of the deposited data

Results flagged for a closer look

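In groups of 4 or 5 arrays, the farthest array for each of the 38 genes, and for their mean level per array, was set against the others by the gap to its nearest neighbour over the group's range (Dixon's test). Of 117 groups of values tested, 6 held an array beyond that test's limit, where chance alone gives about 1 in 20; in all 6 it was the lowest array. Null array 1, which also had the lowest correlation with its group, was far below the others for Pola1, at a signal of 1753 against 4872 to 5594, and for Rfc5, at 6269 against 9726 to 11569. Bud array 1 was far below the other buds for Pold1, at 6197 against 11272 to 12627, and for Prim2, at 2173 against 2967 to 3128. Wild-type capture 1 was far below the others for Dbf4, at 12756 against 19061 to 20174, and wild-type capture 3 for Rfc5, at 10027 against 11698 to 11854.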

How the results depend on the processing

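With 3 to 5 arrays a group, calls near the threshold changed with the fit. In bud against mesenchyme 3 genes and 5701 probe sets were called; the gene count was 1 with no filter on dim probe sets, with no intensity trend, with all 16 arrays in 1 fit and with the mean over the probe sets of each gene, and 15 with array weights. A count of 1 is 2.63% of the genes, beside 11.6%, 22.5%, 15% and 26.6% of all that was tested in those settings in turn. With array weights 39.5% of the genes were called, beside 42.5% of all tested probe sets. The probe set count was 3750 with probe sets above the median on every array, 10132 with array weights and 3580 with all 16 arrays in 1 fit. Leaving out 1 array gave 1 to 9 genes and 3982 to 7804 probe sets. The median difference of the genes was 0.25 after centring and 0.06 to 0.19 with 1 array left out.

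In null against wild type 1 gene and 411 probe sets were called; there were 3 genes and 1654 probe sets with array weights, 5 genes (Pola2, Mcm6, Prim2, Fen1 and Rrm2) and 1793 probe sets with all 16 arrays in 1 fit, and 0 genes with the mean over probe sets, where Pola2 stood at -0.017 and 2 dim probe sets entered its mean. With array weights that is 7.89% of the genes beside 7.07% of all tested probe sets. With all 16 arrays in 1 fit it is 13.2% beside 7.67%. Probe set counts were 207 after centring, 256 with no filter and 215 with no intensity trend, and the median difference was 0.40 after centring. Leaving out 1 array gave 0 to 3 genes, 60 to 1811 probe sets and a median of 0.019 (without null array 5) to 0.15 (without null array 1). With the replicate number as a block, over arrays numbered 1 to 4, 53 probe sets and 0 genes were called and the median difference was 0.02; Pola2 stood at 1.05 (adjusted p = 0.112), and no label says that the numbers pair embryos.

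In capture against hand dissection 8 genes and 5866 probe sets were called; the gene count was 5 with no intensity trend, 14 with array weights, 5 with all 16 arrays in 1 fit (2812 probe sets) and 4 with the mean over probe sets. These counts are 13.2%, 36.8%, 13.2% and 10.5% of the genes, beside 20.2%, 34.2%, 11.9% and 14% of all that was tested in each setting. With the mean over probe sets Prim1 turned to 0.41 (adjusted p = 0.0457) and Tfdp2 to 0.036 (adjusted p = 0.918). For Prim1 this setting averages the representative probe set with the second, higher one given above. For Tfdp2 the cause was not tested. Leaving out 1 array gave 5 to 11 genes, 3384 to 5993 probe sets and a median of 0.08 to 0.19. After centring the median difference was -0.077 and the mean replication level of wild-type captures was -0.23. Unless stated, the cause of these changes was not tested.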
